A study of Rattus norvegicus with 8 samples.

Results

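The genes described here are the 9 rat genes for the prolyl hydroxylases of collagen and the chaperones that fold it in the endoplasmic reticulum: P4ha1, P4ha2, P4ha3, P4hb, P3h1, Crtap, Ppib, Serpinh1 and Fkbp10. They were chosen by name, through the RefSeq accession that the array gives each probe, and make up 9 of the 13903 named genes on the arrays. Each was read by 1 probe, printed in 1 spot. The measurements came from RNA of full-thickness skin, read on 1-colour Agilent arrays. All rats were male and of the Sprague-Dawley strain. In the STZ group, rats 4 weeks old had been injected intraperitoneally with 60 mg/kg streptozotocin (STZ), which kills pancreatic beta cells and so makes rats diabetic, and in the sham group they had been given sodium citrate solution. Skin was taken 4 weeks later, at 8 weeks of age. The labels also mention a cutaneous wound, and do not say whether the skin on the arrays had been wounded, nor how many rats went into an array.

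Collagen chains are modified in the endoplasmic reticulum before they wind into a triple helix. Prolyl 4-hydroxylase, a tetramer of catalytic alpha subunits (P4ha1, P4ha2 or P4ha3) and beta subunits (P4hb, also protein disulfide isomerase), hydroxylates prolines and so makes the helix stable at body temperature. It needs oxygen, iron, ascorbate and oxoglutarate. A complex of P3h1, Crtap and cyclophilin B (Ppib) hydroxylates single prolines at another carbon and isomerises prolyl bonds, Serpinh1 (Hsp47) binds and guards the folded helix, and Fkbp10 (FKBP65) is a prolyl isomerase that also acts on the lysyl hydroxylation of collagen. In human, loss of P3H1, CRTAP, PPIB, SERPINH1 or FKBP10 causes forms of brittle bone disease. In skin, fibroblasts of the dermis make most of the collagen.

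The labels list 4 STZ and 4 sham samples, but in each group the samples numbered 1 and 3 were scans of a single array, and so were those numbered 2 and 4. For probes with several spots, the deviations of the spots from their probe's mean correlated at 0.980 to 0.991 within these 4 pairs, and at 0.774 at most between all other samples. Every comparison therefore set 2 STZ arrays against 2 sham arrays. The array of replicates 1 and 3 is called the first array of its group below, and the array of replicates 2 and 4 the second. The 75th percentile of the processed signal was 1481 to 1496 on the first and 606 to 624 on the second STZ array, against 1138 to 1336 on the sham arrays, so the second STZ array stood apart. All 4 arrays lay on 1 slide. The STZ arrays were at positions 1 and 2 and the sham arrays at positions 3 and 4. Group and position on the slide therefore cannot be told apart. Of 24684 probes, 21511 were tested, and all 9 genes were among them. The 9 probes were well above background in 72 of 72 readings with no saturated or outlying spot, and the scans of 1 array differed by at most 0.09 on the log2 scale.

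Levels are given below as log2 of the signal over the array's 75th percentile, and a change is the STZ mean minus the sham mean of these levels. Changes are printed relative to the median change of all tested probes, which was 0.23 on that scale, and ± gives the SE. The p-values come from limma's moderated test on the 75th percentile scale, and the adjusted p is the Benjamini-Hochberg value over all 21511 probes. Levels of different genes were not compared, because they were read by different probes.

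P4ha3, a catalytic subunit of prolyl 4-hydroxylase, had the largest difference of the 9 genes, 4.26-fold higher in STZ skin relative to the median probe. P4ha1, the main catalytic subunit in many tissues, and P4hb, the shared beta subunit, were also higher on both STZ arrays than on both sham arrays. P4ha2 was not. The complex of P3h1 and Crtap and the chaperone Fkbp10 were high on the second STZ array and near the sham mean on the first, and Serpinh1 had no direction that held across the arrays. None of the 9 genes passed the test after adjustment.

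By count, 0 of the 9 genes had an adjusted p under 0.05 in limma's test, as did 0% of all tested probes, and the lowest adjusted p of any probe was 0.0748. At an unadjusted p under 0.05, 1 gene (P4ha3) was higher in STZ skin, against 7.32% of all probes (1575), and 0 of the 9 were lower, against 3.52% (758). With quantile normalization in place of the 75th percentile, 1231 probes were higher and 1151 lower at that threshold. Without the first STZ array, which leaves 1 STZ array, the changes of P4ha3, Crtap and Fkbp10 were 2.20, 1.51 and 1.27. On the 75th percentile scale all STZ readings lay above all sham readings for 5 genes (P4ha1, P4ha3, P4hb, Crtap and Ppib), where 26.9% of all probes did so. All STZ readings lay below all sham readings for 0 of the 9 genes, against 17.9% of probes. Of the 9 genes, 7 were higher and 2 lower than the median probe, with a median change of 0.65, which was 0.09 without the second STZ array and 0.25 without the second sham array. The quartiles of the change over all probes were -0.51 and 0.66. With 2 arrays against 2, an exact permutation test on a single gene could give no p below 0.333.

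**Figure D1:**
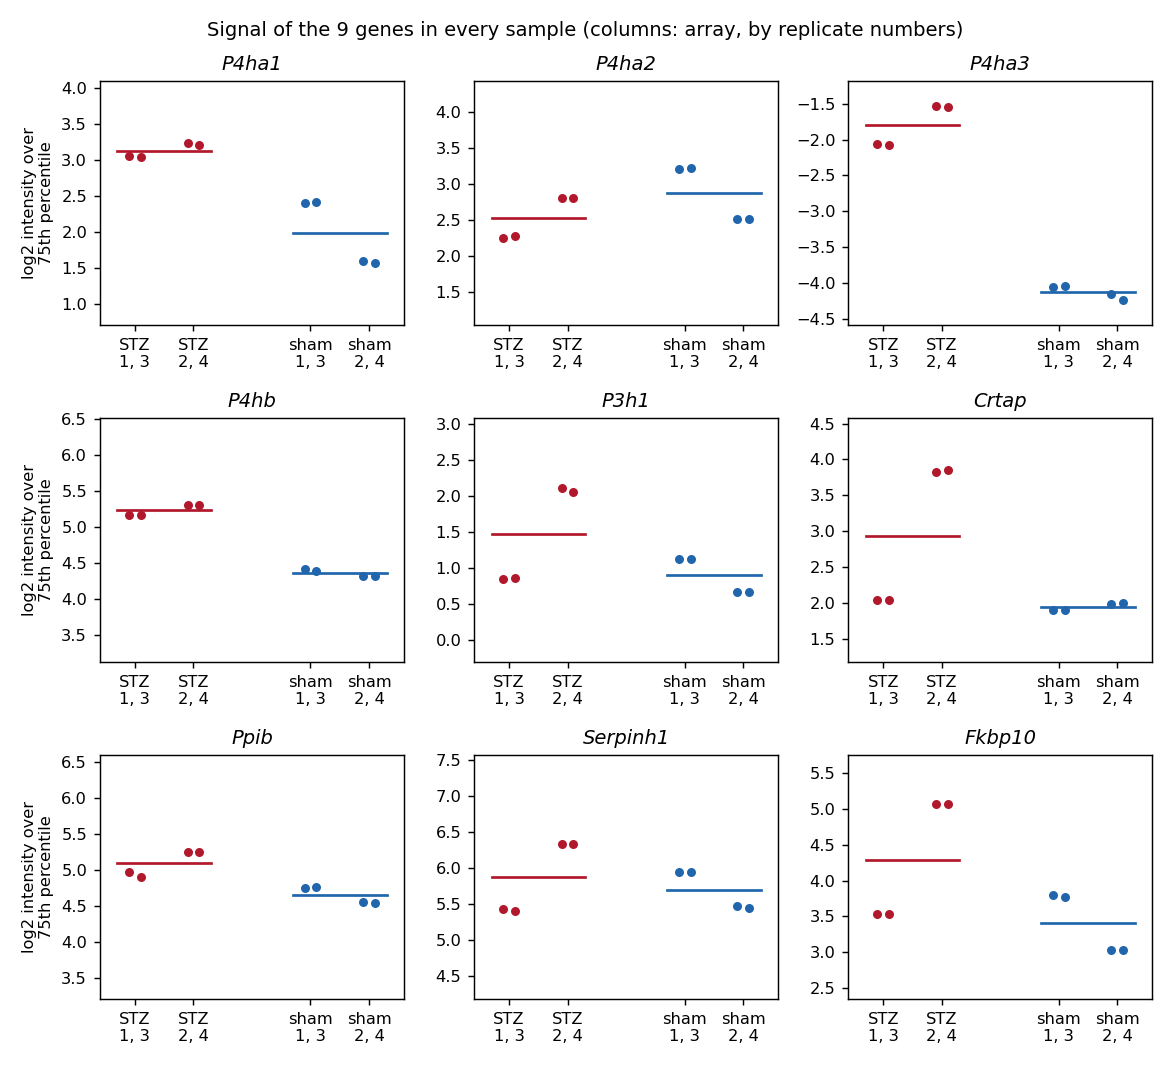
Levels of the 9 genes in every sample, as log2 intensity over the 75th percentile of the array (vertical axes of equal length, each centred on its gene). Each point is 1 scan, the points of 1 column are both scans of 1 array (named by its replicate numbers), lines are group means, and STZ is in red left of sham in blue. P4ha1, P4ha3 and P4hb lie higher on both STZ arrays, while Crtap, P3h1 and Fkbp10 lie high on the STZ array of replicates 2 and 4.

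The promoters are shown for P4ha1, P4ha3 and P4hb, whose STZ levels all lay above the sham levels, and for P4ha2 and Serpinh1, whose STZ and sham levels overlapped. They are the 250 bases before the start of each gene from RefSeq (rat assembly GRCr8), written 5' to 3' along the gene. Such a table entry was used for 8 of the 9 genes, all except Fkbp10. Capitals mark matches, on either strand, to short motifs of known stress responses: the hypoxia response cores ACGTG and GCGTG, which read CACGT and CACGC on the opposite strand, the CCAAT box, and the heat shock core GAANNTTC, which reads the same on both strands.
P4ha1 (chr20:27844796-27845045, plus strand): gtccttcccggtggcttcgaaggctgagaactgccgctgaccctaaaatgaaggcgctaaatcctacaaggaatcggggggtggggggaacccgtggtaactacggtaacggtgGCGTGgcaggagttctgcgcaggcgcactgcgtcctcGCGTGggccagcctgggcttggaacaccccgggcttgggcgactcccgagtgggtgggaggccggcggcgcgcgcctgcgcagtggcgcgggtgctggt
P4ha2 (chr10:38743644-38743893, plus strand): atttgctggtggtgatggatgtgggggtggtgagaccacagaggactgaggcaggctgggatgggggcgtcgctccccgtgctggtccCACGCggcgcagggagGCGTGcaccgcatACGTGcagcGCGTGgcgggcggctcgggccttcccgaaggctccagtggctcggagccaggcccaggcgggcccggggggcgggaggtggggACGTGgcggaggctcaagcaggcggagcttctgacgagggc
P4ha3 (chr1:164040614-164040863, plus strand): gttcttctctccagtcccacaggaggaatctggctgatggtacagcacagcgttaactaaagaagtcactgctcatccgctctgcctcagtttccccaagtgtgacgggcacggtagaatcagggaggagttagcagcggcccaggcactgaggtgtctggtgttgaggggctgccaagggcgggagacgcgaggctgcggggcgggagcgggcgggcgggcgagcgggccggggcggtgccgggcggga
P4hb (chr10:106346912-106347161, minus strand): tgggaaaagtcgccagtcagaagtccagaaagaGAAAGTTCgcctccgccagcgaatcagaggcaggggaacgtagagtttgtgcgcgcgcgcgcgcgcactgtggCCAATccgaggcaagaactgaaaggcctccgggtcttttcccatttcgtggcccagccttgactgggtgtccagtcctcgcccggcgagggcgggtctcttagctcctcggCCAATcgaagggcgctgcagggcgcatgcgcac
Serpinh1 (chr1:163062977-163063226, minus strand): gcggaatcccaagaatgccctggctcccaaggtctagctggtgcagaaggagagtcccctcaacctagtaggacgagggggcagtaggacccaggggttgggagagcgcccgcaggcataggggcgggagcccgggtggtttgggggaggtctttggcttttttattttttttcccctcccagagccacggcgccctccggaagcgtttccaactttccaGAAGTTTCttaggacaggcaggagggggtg

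P4ha1 held 2 GCGTG matches, 136 to 132 and 99 to 95 bases before the start, and no ACGTG. P4ha2 held 2 ACGTG and 3 GCGTG matches, the most of the hypoxia cores among the 8 promoters. P4ha3 held no match to any motif searched. P4hb held 2 CCAAT boxes, the nearer one 33 to 29 bases before the start, and 1 heat shock core 217 to 210 bases before it. Serpinh1, a known target of the heat shock factor, held 1 heat shock core 30 to 23 bases before the start. Of the others, Ppib held 2 ACGTG, 1 GCGTG and 1 CCAAT, P3h1 2 GCGTG and 1 CCAAT, and Crtap 1 GCGTG.

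Over 33469 RefSeq promoters of the same length, ACGTG was found in 16.6%, GCGTG in 25.9%, CCAAT in 34.0% and GAANNTTC in 7.23%. The endoplasmic reticulum stress element, in which CCAAT is followed after 9 bases by CCACG, was found in 0.0657% of promoters and in none of the 8, and TATAAA in 12.9% of promoters and, of the 8, in Crtap, 163 to 158 bases before its start. CCAAT is part of the stress element, and a match to either core is a match of letters only. The 8 promoters held 57.2 to 72.4% G and C, against a median of 51.2% over all promoters.

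Among the catalytic subunits, P4ha3 had levels of -2.07 and -1.54 on the first and the second STZ array, against -4.04 and -4.20 on the first and the second sham array. The groups lay far apart compared with the gap between arrays of a group. The change was 2.09 ± 0.45 (SE, n = 2 arrays per group), with a 95% interval of 0.94 to 3.24 and adjusted p = 0.182. Its p ranked 415 among all tested probes, and the change lay at the 95.7th percentile. P4ha3 was a dim spot, with processed signals of 210 to 356 in the STZ samples against 68.7 to 72.9 in the sham samples. Under normexp background correction with quantile normalization the change was 1.37, the lowest of 18 alternatives, and the highest was 2.20. The unadjusted p stayed under 0.05 in 18 of 18.

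P4ha1 had levels of 3.04 and 3.22 on the first and the second STZ array, against 2.41 and 1.57 on the first and the second sham array. Both STZ arrays lay above both sham arrays, and the sham arrays differed more from each other than the STZ arrays did. Before scaling, the processed signal was 5719 to 5766 on the second STZ array and 6014 to 6235 on the first sham array. The change was 0.92 ± 0.49 (95% interval -0.35 to 2.18), with adjusted p = 0.505. Without the second sham array it was 0.47, and without the first 1.36, so the size of the difference rested on which sham array was used.

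P4ha2, a main catalytic subunit in cartilage and bone cells, had levels of 2.26 and 2.80 on the first and the second STZ array, against 3.21 and 2.52 on the first and the second sham array. The groups overlapped. The change was -0.56 ± 0.50, with a 95% interval of -1.84 to 0.72 and adjusted p = 0.809. It stayed below 0 with each array left out, between -0.94 and -0.19, but an interval this wide holds both a lower and a higher level in STZ skin.

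Ratios of subunits within an array are not moved by a shift of the whole array, though quantile normalization and background correction can move them. They were taken for pairs picked after the values had been seen and are given with no test. The log2 ratio of P4ha1 to P4ha2 was higher than the sham mean by 1.66 on the first and 1.30 on the second STZ array, a mean of 1.48 or 2.79-fold. That of P4ha3 to P4ha2 was higher by 2.66 and 2.65, a mean of 2.65 or 6.29-fold. Under normexp background correction with quantile normalization the ratio of P4ha3 to P4ha2 was higher by 1.56, the lowest of the alternatives, while that of P4ha1 to P4ha2 was 1.47. The ratio of P4ha3 to P4ha1 was higher by a mean of 1.17, but by 0.70 with quantile normalization, 0.71 with normexp and the 75th percentile, and 0.09 with normexp and quantile normalization. The difference between P4ha3 and P4ha1 therefore depended on the processing.

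The beta subunit P4hb had levels of 5.17 and 5.31 on the first and the second STZ array, against 4.39 and 4.32 on the first and the second sham array. Its arrays agreed closest within groups of the 9 genes, and both STZ arrays lay above both sham arrays. Before scaling, the processed signal was 24133 to 24700 on the second STZ array and 24125 to 26733 on the sham arrays. The change was 0.65 ± 0.42, with a 95% interval of -0.42 to 1.72 and adjusted p = 0.535. The log2 ratio of P4ha1 to P4hb was 0.24 and 0.28 above the sham mean on the STZ arrays, and -0.12 and 0.65 relative to the first and the second sham array alone. Of other enzymes of the protein disulfide isomerase family, Pdia5 had a change of 0.99 ± 0.62, Pdia4 of -0.59 ± 0.45 and Pdia6 of -0.14 ± 0.41. Pdia4 and Pdia6 were named after their values had been seen.

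**Figure D2:**
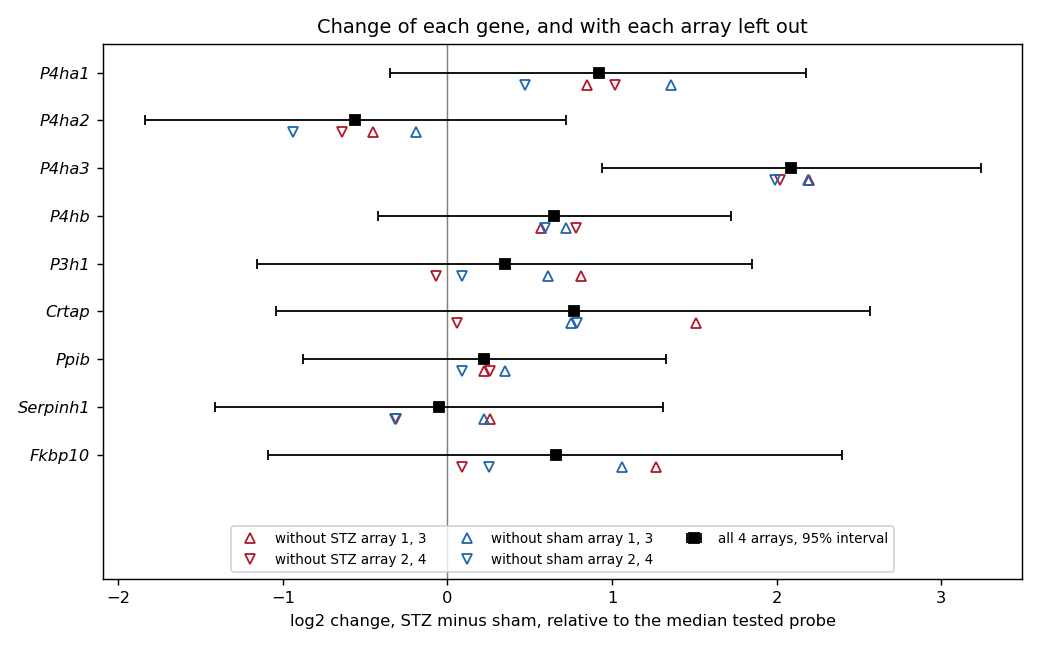
Change of each gene as the log2 STZ minus sham difference, relative to the median tested probe (horizontal axis). Squares are the estimates from all 4 arrays with 95% intervals from limma's moderated variance, and triangles show the estimate with 1 array left out, in red for an STZ array and in blue for a sham array. The interval of P4ha3 alone lies clear of 0, and for P3h1 and Serpinh1 the estimates fall on both sides of 0.

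In the complex that hydroxylates single prolines, Crtap, its scaffold subunit, had levels of 2.04 and 3.84 on the first and the second STZ array, against 1.90 and 1.99 on the first and the second sham array. The sham arrays and the first STZ array lay close together, and the second STZ array lay far above them. The change was 0.77 ± 0.70 (95% interval -1.04 to 2.57, adjusted p = 0.633), and 0.06 without the second STZ array.

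P3h1, the catalytic subunit of that complex, had levels of 0.85 and 2.09 on the first and the second STZ array, against 1.13 and 0.66 on the first and the second sham array. The groups overlapped. The change was 0.35 ± 0.59 (95% interval -1.16 to 1.85, adjusted p = 0.728), and without the second STZ array it was -0.07. Ppib, cyclophilin B, an isomerase of prolyl bonds that works in and outside the complex, had levels of 4.94 and 5.26 on the first and the second STZ array, against 4.76 and 4.55 on the first and the second sham array. Both STZ arrays lay above both sham arrays, by little, and the change was 0.22 ± 0.43 (95% interval -0.88 to 1.33, adjusted p = 0.710). Before scaling, the processed signal was 23151 to 23968 on the second STZ array and 30388 to 31784 on the sham arrays. On the second STZ array Crtap, P3h1 and Ppib stood 1.51, 0.81 and 0.22 above the sham mean, and on the first at 0.06, -0.07 and 0.26.

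Of the chaperones, Serpinh1 had levels of 5.42 and 6.34 on the first and the second STZ array, against 5.95 and 5.46 on the first and the second sham array. The first STZ array was the lowest of the 4 and the second the highest. The change was -0.05 ± 0.53 (95% interval -1.41 to 1.31, adjusted p = 0.915), and it was -0.31 without the second STZ array and 0.26 without the first. An interval this wide does not show that STZ and sham skin had like levels of Serpinh1.

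Fkbp10 had levels of 3.53 and 5.06 on the first and the second STZ array, against 3.79 and 3.03 on the first and the second sham array. The first STZ array lay between the sham arrays and the second above both. The change was 0.66 ± 0.68 (95% interval -1.09 to 2.40, adjusted p = 0.652), and 0.09 without the second STZ array. The log2 ratio of Fkbp10 to Serpinh1 was above its sham mean by 0.40 on the first and 1.01 on the second STZ array, and that of P4hb to Serpinh1 by 1.09 and 0.31.

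The STZ arrays therefore fell into different patterns across the 9 genes. On the 75th percentile scale all 9 genes had a higher level on the second than on the first STZ array, as did 63.7% of all tested probes. Relative to the median probe of each array this held for the others, but not for P4ha1, P4hb and Ppib. On that scale the median over the 9 genes was 0.09 on the first and 0.81 on the second STZ array. P4ha1, P4ha2, P4ha3, P4hb and Ppib stood at similar distances from the sham mean on both: P4hb, which differed most of these, was at 0.78 on the first and 0.57 on the second. Crtap, Fkbp10, P3h1 and Serpinh1 differed more, and Serpinh1, which differed least of these, was at -0.31 on the first and 0.26 on the second. Within the sham group, 8 of 9 were higher on the first array, against 51.9% of all probes. The low 75th percentile of the second STZ array moves with these differences, and its part in them was not tested.

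**Figure D3:**
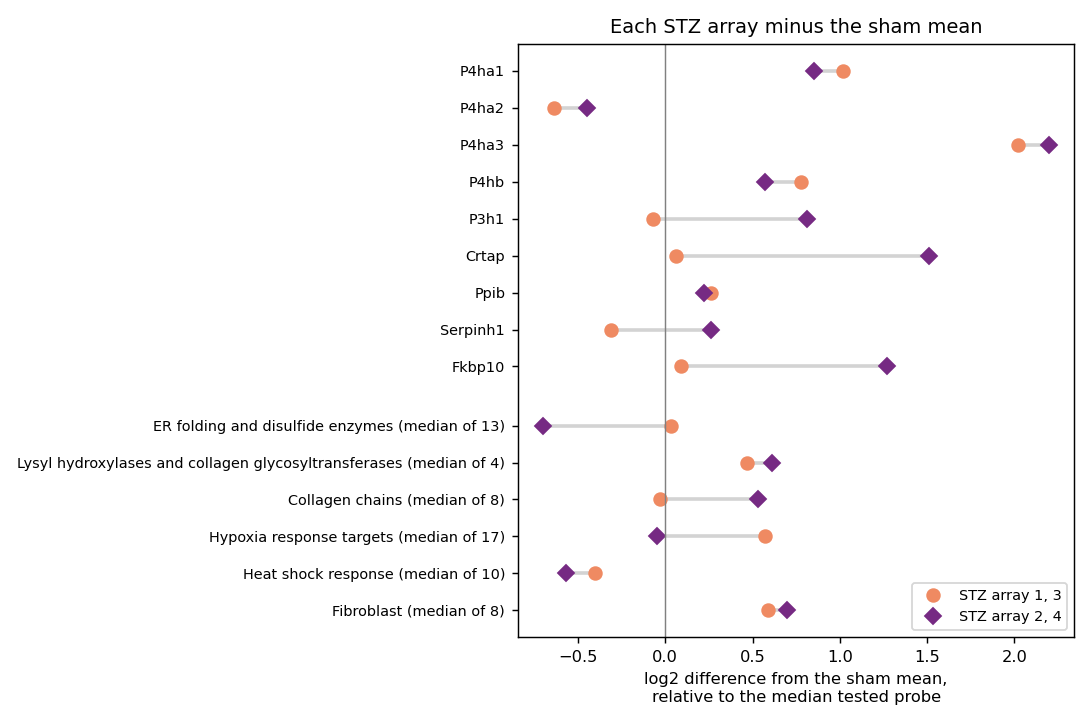
Level on each STZ array minus the mean of the sham arrays, as log2 and relative to the median tested probe of that array (horizontal axis). Circles are the STZ array of replicates 1 and 3, diamonds that of replicates 2 and 4, and the lower 6 lines are medians over lists of related genes. Crtap, Fkbp10, P3h1 and Serpinh1 are higher on the array of replicates 2 and 4, as is the median of the collagen chains, while the median of the hypoxia response targets is higher on the other.

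The substrates of these enzymes, the collagen chains, were represented by 8 of 21 listed genes, of which 5 were higher and 3 lower than the median probe. Their median was -0.03 on the first and 0.53 on the second STZ array, the same order as for the 9 genes. None of the 8 had an unadjusted p under 0.05. Col5a3, a minor fibrillar chain, came nearest, at 0.98 ± 0.51. Col1a2 and Col3a1, chains of the main dermal collagens and named after their values had been seen, had changes of 0.15 ± 0.50 and 0.37 ± 0.54. On the first STZ array P4ha1, P4ha3 and P4hb were 0.78 or more above the sham mean, with Col1a2 at -0.09 and Col3a1 at 0.03. The other chains ranged from -1.58 (Col14a1) to 0.92 (Col7a1) on that array. On the second STZ array Col1a2 and Col3a1 were at 0.43 and 0.75, and P4ha1, P4ha3 and P4hb at 0.85, 2.20 and 0.57.

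Among enzymes that modify lysines of the same chains, all 4 measured genes were above the median probe, with a median of 0.52. Plod2, the lysyl hydroxylase of the chain ends, stood out with levels of 0.85 and 0.63 on the first and the second STZ array, against -1.33 and -1.38 on the first and the second sham array. Its change was 1.87 ± 0.42 (adjusted p = 0.193), near that of P4ha3. Plod1, Plod3 and Colgalt1 had changes of 0.53, 0.51 and 0.06.

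Other prolyl hydroxylases and isomerases, the FKBP and cyclophilin families and the hydroxylases of hypoxia-inducible factor among them, had 9 of 14 measured genes higher and 5 lower, with a median of 0.06. None had an unadjusted p under 0.05. P3h4, a partner of lysyl hydroxylase in collagen modification, had a change of 0.64 ± 0.52 and P3h2, another prolyl 3-hydroxylase, 0.94 ± 0.77. Ppif, the mitochondrial cyclophilin, was at -1.32 ± 0.59 and Ppid, a cyclophilin of the cytosol, at -0.90 ± 0.45.

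General folding enzymes of the endoplasmic reticulum lay lower, with 11 of 13 below the median probe and a median of -0.30. The median was 0.03 on the first and -0.70 on the second STZ array, the opposite order to the 9 genes. None passed the unadjusted threshold: Creld2 and Hyou1 had changes of -0.75 ± 0.47 and -0.78 ± 0.51, and Sdf2l1 of 0.77 ± 0.50. Regulators of the unfolded protein response had 5 of 9 genes higher and a median of 0.07. Of these, Ddit3 (CHOP), a transcription factor of prolonged stress, was at 1.60 ± 0.63 (adjusted p = 0.406).

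Genes of the export of procollagen had 5 of 14 higher and a median of -0.03. Klhl12, an adaptor of the ubiquitin ligase that enlarges transport vesicles for procollagen, was at -1.49 ± 0.47 (adjusted p = 0.440), and Tmem38b, a cation channel of the endoplasmic reticulum, at 0.77 ± 0.49. The heat shock list, which bears on Serpinh1, had 3 of 10 higher and a median of -0.50, with no gene under an unadjusted p of 0.05. Hsph1 and Hspb1 were at -1.04 ± 0.46 and -0.84 ± 0.42.

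Targets of the hypoxia response, which in other tissues include P4ha1 and P4ha2, had 14 of 17 genes higher and a median of 0.34. The median was 0.57 on the first and -0.05 on the second STZ array. Car9, a carbonic anhydrase, was at 1.33 ± 0.46 (adjusted p = 0.332) and Slc2a1, a glucose transporter, at 1.48 ± 0.66 (adjusted p = 0.461). Both were higher on both STZ arrays than on both sham arrays. Car9 was dim, with mean levels of -3.93 in STZ skin and -5.49 in sham skin. Relative to the sham mean P4ha1 stood at 1.02 and 0.85 on the first and the second STZ array, and P4ha2 at -0.64 and -0.45. Any part of the hypoxia response in the values of P4ha1 and P4ha2 was not tested.

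For the cofactors of the hydroxylases (ascorbate, iron and oxoglutarate), 6 of 12 genes were higher and 6 lower, and 5 had an unadjusted p under 0.05, though none passed after adjustment. Slc40a1, the iron exporter ferroportin, was at -2.23 ± 0.45 (adjusted p = 0.218). The ferritin chains, which store iron, were 2.15-fold higher for Ftl1 and 2.23-fold higher for Fth1. Idh2, which makes oxoglutarate in mitochondria, was at 1.35 ± 0.45, and Slc2a3, a transporter of glucose and dehydroascorbate, at 2.50 ± 0.90.

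Over all related lists, 101 of 131 listed genes were tested, and their median change was 0.03. At an unadjusted p under 0.05 there were 8 higher genes and 2 lower ones, against 7.32% and 3.52% of all probes, and none passed after adjustment. All STZ readings lay above all sham readings for 27 of the 101 and below them for 11, against 26.9% and 17.9% of all probes.

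**Figure D4:**
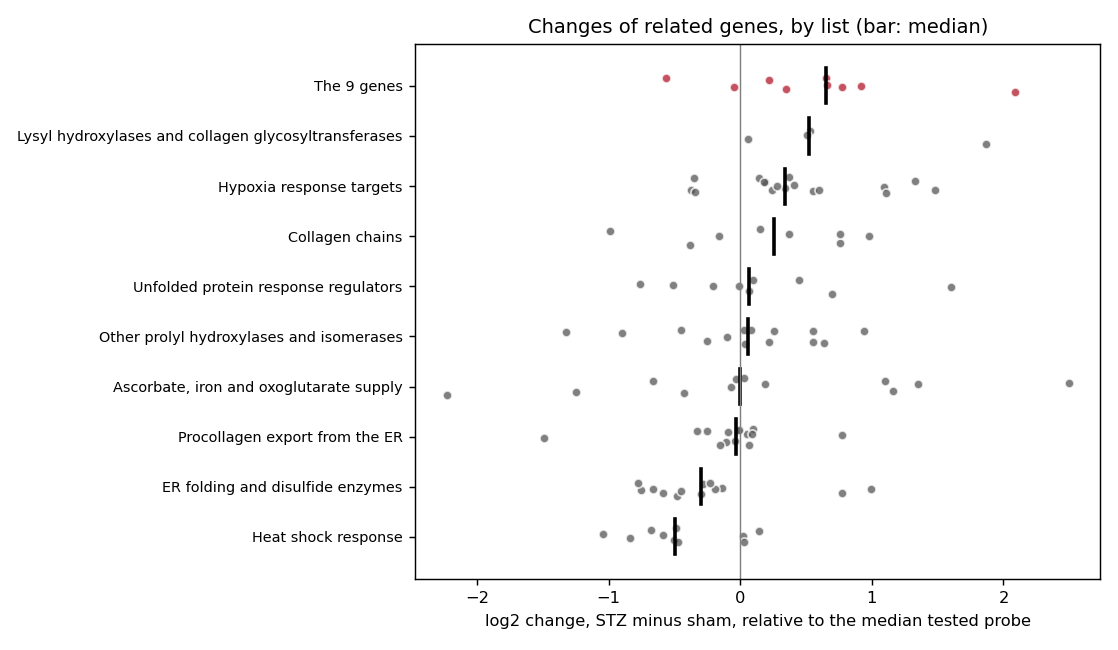
Log2 STZ minus sham change of each measured gene, relative to the median tested probe (horizontal axis), for the 9 genes in red and for lists of related genes in grey, with a bar at each median. The median of the 9 genes lies at 0.65, that of the collagen chains at 0.26, of general folding enzymes at -0.30 and of the heat shock response at -0.50.

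Marker genes of several cell types also differed between the groups. Of fibroblast markers, the cells that make most collagen, 7 of 8 were higher and 1 lower, with a median of 0.69. It was 0.59 on the first and 0.70 on the second STZ array. The 9 genes had a median of 0.65, with 0.09 on the first and 0.81 on the second STZ array. Their summed level, in units of the 75th percentile, was 438 and 885 in STZ skin, against 407 and 363 in sham skin. The markers include Col1a2 and Col3a1, which are also among the collagen chains above and weigh most in this sum. Lum, a proteoglycan of collagen fibrils, was at 2.50 ± 0.66 (adjusted p = 0.249). Because the tissue was bulk skin, a change in the number of cells and a change in RNA per cell cannot be told apart.

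Of the macrophage markers 12 of 12 were higher in STZ skin (median 1.83), of the neutrophil markers 8 of 8 (median 3.79) and of the T cell markers 8 of 8 (median 1.96). At an unadjusted p under 0.05 these were 11, 6 and 7 genes, and none passed after adjustment. The summed macrophage level was 359 and 512 in STZ skin, against 123 and 66.5 in sham skin, and the neutrophil sum was 70.6 and 74.1, against 1.66 and 1.43. The T cell sum was 9.38 and 14.8, against 1.84 and 1.52. Hair follicle markers were lower for 11 of 11, with a median of -6.35 and sums of 96.9 and 5.43 in STZ skin, against 727 and 751 in sham skin. Keratinocyte markers had 2 of 6 higher and a median of -0.87, with sums of 339 and 254, against 318 and 169. Adipocyte markers were lower for 8 of 8, with a median of -2.30.

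For endothelium the median was 0.33, for smooth muscle and pericytes 0.27, for chondrocytes and bone 0.18, for plasma cells 0.08 and for skeletal muscle -0.59. Of the chondrocyte and bone markers 3 of 6 were higher and 3 lower. Acan, a proteoglycan of cartilage, was at -2.41 ± 0.57 (adjusted p = 0.270), with low mean levels of -5.48 in STZ skin and -3.29 in sham skin. Keratinocyte and fibroblast markers, which define skin, were well above background in every sample for 6 of 6 and 8 of 8 measured genes. Neutrophil markers were so for 5 of 8. The part of these cells in the values of the 9 genes was not tested.

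The named genes whose pattern over the 4 arrays was nearest to that of P4ha3, out of 12599, were Clec2d2, Ltb (lymphotoxin beta) and Gpr18. Their centred levels differed from those of P4ha3 by a root mean square of 0.0348, 0.0833 and 0.127 on the log2 scale, and their changes were 2.12, 2.08 and 2.15. With 4 arrays such likeness is a description of these arrays.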

How the data were processed

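Total skin RNA was amplified and given a Cy3 label for 1-colour Agilent arrays, as the labels' protocols state. The deposited intensity is the processed signal of Agilent Feature Extraction, version 11.0.1.1 per the file headers and 11.0.0.1 per the submitters' processing notes, background-subtracted and not normalized between arrays. The deposited median spot and background intensities were used for the normexp alternatives, as the headers name no mean signal. The other values used were the flags of 0 or 1 per spot, set by that software per the file headers.

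From log2 intensities each sample's 75th percentile over 42136 noncontrol spots was subtracted, outlier spots were left out and spots of a probe averaged. Scans of 1 array were averaged (SD of the log2 difference over the tested probes 0.0979 to 0.139, against 0.893 to 1.17 for other pairs within a group). The correlations of spot deviations given above were taken over 3716 spots. Probes that 4 or more of the 8 samples showed well above background were tested with lmFit and eBayes (limma 3.58.1, R 4.3.3), two-sided, with Benjamini-Hochberg adjustment. SE and intervals use the moderated variance (2 residual and 3.01 prior degrees of freedom). The fit was tested on simulated data. The p-values and SE combine a gene's own spread between 2 arrays per group, which may be technical, with the typical spread of all probes. For P4hb the SD between arrays was 0.10 in STZ and 0.05 in sham skin, so its SE of 0.42 came largely from other probes. The number of arrays limits the precision. Accessions were named through a RefSeq table of GRCr8, which held 14274 of 15321 coding accessions. Array coordinates, of build rn4, are not used here.

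The 9 genes and all lists were chosen with earlier results of these data known. The text names all 9 genes, up to 4 genes of a list with the smallest p, and the 3 genes nearest to the gene with the smallest p. In several marker lists no gene is named, and genes in small counts are not always named. Pdia4, Pdia6, Col1a2, Col3a1 and Fth1 were named outside this rule after their values were seen. Same-numbered arrays of the groups deviated from their group means with a correlation of -0.2. This single value over 4 arrays cannot settle whether the numbers pair the arrays, and the main fit used no pairing. Alternatives were other scaling, background, filters, arrays left out, scans kept apart and blocks.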

Additional observations from a re-analysis of the deposited data

How the results depend on the processing

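P4ha3, P4ha1, P4hb, Crtap, Ppib and Fkbp10 stayed above the median probe, and P4ha2 below it, in all 18 alternatives. The ranges were 1.37 to 2.20 for P4ha3, 0.47 to 1.36 for P4ha1, 0.46 to 0.88 for P4hb and -0.94 to -0.19 for P4ha2. The replicate blocks, the 8 scans as separate samples, the random block and the median scale could hardly move a change. Neither could keeping outlier spots or averaging the probes of a gene, as each gene had 1 probe without outlying spots. With 1 array left out, P3h1 lay between -0.07 and 0.81, Serpinh1 between -0.32 and 0.26 the median of the 9 genes between 0.09 and 0.81, and the log2 ratio of P4ha1 to P4hb between -0.12 and 0.65. Serpinh1 was at 0.05 with normexp and quantile normalization and at 0.03 when every one of the 8 samples had to show a probe well above background. With the 8 scans as separate samples, where rescans count as replicates, 3 genes (P4ha1, P4ha3 and P4hb) had an adjusted p under 0.05. The same 3 did with the array as a random block, which fits a shared correlation of rescans over all probes. Elsewhere the count was 0. At an unadjusted p under 0.05, the 9 genes gave 2 calls with quantile normalization, 3 with normexp and quantile normalization, 1 to 3 with 1 array left out, 4 with 8 samples and 3 with the random block. Related genes gave 1 to 14 higher calls with 1 array left out, 23 with 8 samples, 16 with the random block and 5 on the scale of the median probe, and 0 to 3 lower calls with 1 array left out, 11 with 8 samples, 7 with the random block, and 1 with normexp and the 75th percentile, with no filter, with the replicate block and with the crossed replicate block. Over all probes, those with an adjusted p under 0.05 numbered 10 with normexp and the 75th percentile, 48 without the first STZ array, 124 on the median scale, 1840 with the random block and 5220 with 8 samples, against 0 otherwise. Probes higher at an unadjusted p under 0.05 numbered 676 to 5380 with 1 array left out, 924 with normexp and the 75th percentile, 2774 with the random block and 5306 with 8 samples, and lower ones 305 to 1094, 561, 2190 and 3301 in the same order, with 1151 under quantile and 1356 under normexp and quantile normalization. Quantile normalization thus split the calls as 1231 higher and 1151 lower, against 1575 and 758. The replicate block left every change of the 9 genes as it was and called none after adjustment. Whether the shared replicate numbers pair the arrays is not known. The median scale and the crossed block were chosen after seeing the data. A slide block was not run, as there was 1 slide. With 1 array left out, the lone array was assumed to vary like the other group. The causes of these differences were not tested. With 2 arrays per group and the moderated variance, differences like those of P4ha1 and P4hb did not pass after adjustment. The value of P4ha3, dim in sham skin, varies with the background correction.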
